A study of Homo sapiens with 6 samples.

Results

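GEM and 7 related small GTPase genes were examined in separate samples of human neurons without and with isoproterenol, an agonist of the β2-adrenergic receptor that raises cAMP. The list holds the RGK genes GEM, RRAD, REM1 and REM2, the RASD genes RASD1 and RASD2, and the RASL11 genes RASL11A and RASL11B. Its names were chosen by family, with the isoproterenol and untreated values of these same samples already known, so the values of the members are a description and carry no test of their own. The table gave 1 row each for 6 of the 8 names, among 19823 genes in all, and REM1 and RASL11B were not analysed here. All 6 measured members stayed in after genes with few reads were removed.

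The 6 samples were glutamatergic excitatory neurons (iNeurons) made from WTc11, an established human induced pluripotent stem cell line. All of them carried an RBM12 knockdown, which lowers an RNA-binding protein linked to psychosis risk, so every control value below is that of knockdown neurons. Samples of 1 group were untreated and those of the other received isoproterenol, with 3 samples in each. The neurons descend from a clonal line in which doxycycline switches on Neurogenin 2 and a silencing dCas9 fusion lowers the targeted gene, and the parental cells used here kept their native receptor, which the study describes as scarce. The labels do not say whether replicates were separate differentiations, so the spread between them may be partly technical. Values are the deposited read counts divided by a size factor per sample, called normalized counts, and each sample held 18116816 to 21488793 recovered reads. RBM12 itself read 244.3 to 278.7 normalized counts in untreated samples and 194.6 to 237.6 in those with isoproterenol. These ranges did not overlap, and the log2 fold change of -0.25 (SE 0.11) did not pass FDR 0.05 in limma with or without the replicate block (adjusted p 0.131 and 0.607). The part of this difference in the results below was not tested. Neurons with a control guide were not analysed here, and the knockdown itself could therefore not be measured.

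The labelled cell type was checked against marker genes. The 9 neuron markers summed to 663297 to 707745 normalized counts without and 647495 to 663306 with isoproterenol. Most of that sum came from NEFL (means 289380 and 280396) and NEFM (260503 and 236361), while TUBB3 averaged only 77.7 and 81.1. The 4 glutamatergic markers summed to 18276 to 19906 and 18586 to 20525. The 3 GABAergic markers were far lower, at 55.3 to 60.0 and 66.9 to 79.0, and their sums did not overlap between the groups. GAD1 and GAD2 had higher means with isoproterenol (16.7 and 28.4 for GAD1, 21.9 and 30.9 for GAD2). SLC32A1 had a lower one (19.1 and 14.6). Astrocyte markers, 2 measured of 4 (AQP4 and S100B), summed to 159.8 to 175.1 and 134.4 to 156.8, also without overlap. Mesenchymal and muscle markers, 4 measured of 7 (COL1A2, TAGLN, DES and MYH7), summed to 252.5 to 267.9 without and 234.1 to 252.4 with isoproterenol. These sums nearly touched but did not overlap. Within that list TAGLN and MYH7 had lower means with isoproterenol and COL1A2 and DES higher ones, at 19.2 and 21.9 for COL1A2 and 4.43 and 10.1 for DES, and the median log2 fold change was 0.039. Pluripotency markers, 2 measured of 4 (POU5F1 and LIN28A), summed to at most 28.8, and CCNB1, the 1 proliferation marker measured of 4, to at most 147.2. The part of the GABAergic, astrocyte and muscle markers in the results below was not tested, and in bulk samples a change in the number of cells of a type cannot be told apart from a change in their RNA content.

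Small GTPases switch between a GTP-bound and a GDP-bound state. RGK proteins bind the β subunits of voltage-gated calcium channels and reduce the current through high-voltage-activated channels, and in heart muscle phosphorylation of RAD, the product of RRAD, by protein kinase A relieves that brake during β-adrenergic stimulation. They also bind calmodulin, 14-3-3 proteins and, for GEM and RAD, the kinases ROCK1 and ROCK2. RASD1 is induced by the glucocorticoid dexamethasone and acts on inhibitory G proteins, RASD2 (Rhes) is abundant in the striatum, and RASL11A acts in the nucleolus.

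GEM (ENSG00000164949; GRCh38 chromosome 8, 94249253 to 94262350, minus strand) had the largest change of the 6 members. Untreated replicates 1 to 3 held 152.5, 92.9 and 167.6 normalized counts of GEM, and isoproterenol replicates 1 to 3 held 255.4, 229.5 and 434.9. Every isoproterenol sample lay above every untreated sample. The mean went from 137.6 ± 39.5 to 306.6 ± 111.9 (SD, n = 3 per group), a ratio of 2.23, and the log2 fold change on the log2(value + 1) scale was 1.14 with a standard error (SE) of 0.34. This was place 43 from the top among the 18130 genes tested.

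The spread of GEM followed the replicate numbers. Replicate 2 was the lowest and replicate 3 the highest sample in both groups, and within same-numbered pairs 1, 2 and 3 the isoproterenol level was 1.68, 2.47 and 2.60 times the untreated one. With replicate number as a block in the fit, the SE fell to 0.11 at the same fold change. Counting error was a small part of the spread. GEM was counted with 96 to 424 reads, for which counting alone gives a coefficient of variation of 8.62% in untreated and 5.84% in isoproterenol samples, against observed values of 28.7% and 36.5%.

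**Figure D1:**
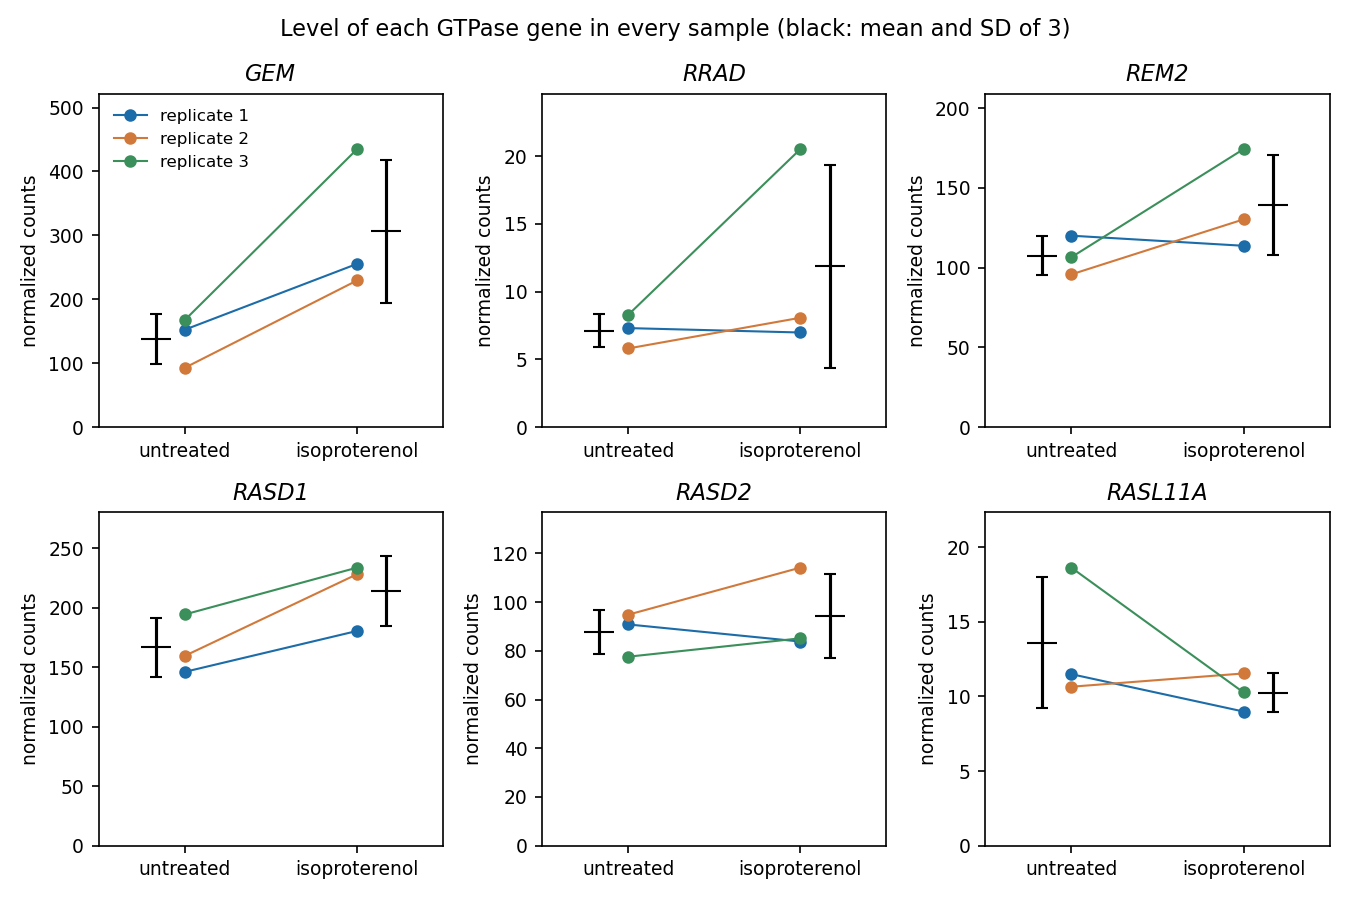
Normalized counts of the 6 measured GTPase genes in each sample, with lines joining same-numbered replicates and black bars for the mean and SD of 3 samples; each panel has its own axis from 0. GEM was higher with isoproterenol along all 3 lines and its groups did not overlap, RASD1 was higher along all 3 lines with overlapping groups, and in the other 4 genes the lines ran in both directions.

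In 1 of the 6 members, GEM, all isoproterenol values lay above all untreated values, a pattern held by 6.73% of the genes tested. GEM and RASD1 were higher in all 3 pairs, as were 18.5% of all genes. With the pairs ignored, none (0) of the members passed a false discovery rate (FDR) of 0.05 in limma, edgeR or DESeq2, where 0.0165% of all genes passed in limma in either direction. An unadjusted p under 0.05 in limma was reached by 3 members and by 7.68% of all genes. With the replicate block in limma, 2 members were higher past FDR 0.05, GEM and RASD1, beside 2.82% of all genes. Because the members were proposed from this contrast, nothing is read from these counts.

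RRAD (ENSG00000166592; chromosome 16, 66921685 to 66925535, minus strand), whose product is also a calcium channel inhibitor, was close to the detection limit. It read 7.31, 5.81 and 8.28 normalized counts without and 6.98, 8.07 and 20.52 with isoproterenol (replicates 1 to 3 of each group). Isoproterenol replicate 3 stood above the other 5 samples, which lay within 3 counts of each other. That sample held 20 reads of RRAD (exact 95% Poisson interval 12.2 to 30.9, which covers counting error only), against 6 to 8 reads in the others. The log2 fold change was 0.52 (SE 0.46), and it was 0.078 without isoproterenol replicate 3. At this depth no difference in RRAD between the groups was detectable apart from that sample.

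REM2 (ENSG00000139890; chromosome 14, 22883222 to 22887678, plus strand) encodes an RGK protein that restrains dendrite branching in neurons. It was measured at 120.1, 95.8 and 106.5 normalized counts without and 113.8, 130.3 and 174.4 with isoproterenol (replicates 1 to 3 of each group). The groups overlapped, and the isoproterenol sample was below its untreated partner in pair 1 and above it in pairs 2 and 3. The mean went from 107.5 ± 12.2 to 139.5 ± 31.3 (SD, n = 3 per group), a log2 fold change of 0.36 (SE 0.16). Within the pairs the log2 fold change was -0.077, 0.44 and 0.71, and without isoproterenol replicate 3 the change over the groups was 0.18.

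The RASD genes encode paralogous proteins. RASD1 (ENSG00000108551; chromosome 17, 17494437 to 17496395, minus strand) had the steadiest change among the members. It read 146.2, 159.7 and 194.5 normalized counts without and 180.6, 228.3 and 233.9 with isoproterenol (replicates 1 to 3 of each group). Isoproterenol replicate 1 lay below untreated replicate 3, so the groups overlapped, yet each isoproterenol sample was above its own partner. The mean went from 166.8 ± 24.9 to 214.3 ± 29.3 (SD, n = 3 per group), and the log2 fold change was 0.36 (SE 0.13, and 0.11 with the block). Within pairs 1, 2 and 3 it was 0.30, 0.51 and 0.26, with an SD of 0.13 over the pairs, the smallest of the 6 members. RASD1 did not pass FDR 0.05 with the block in DESeq2, nor in limma with the block when the samples of any 1 replicate number were left out.

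GEM and RASD1 were higher in every pair, and of these only RASD1 had a RefSeq promoter at hand. Its promoter was thus picked after the values were seen. The stretch shown runs from position -150 to -51 relative to the RefSeq start site, in GRCh38.p14 at chr17:17496446-17496545, minus strand. Capitals mark TGACG, the half-site of the cAMP response element, to which CREB-family factors are known to bind.

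RASD1: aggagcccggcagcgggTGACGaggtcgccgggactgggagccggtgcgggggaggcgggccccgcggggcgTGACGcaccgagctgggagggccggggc

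Its matches begin at positions -133 and -78. RefSeq promoters, which run from 250 bases before to 50 after a start site, were at hand for 4 of the 6 measured members, namely RASD1, REM2, RASD2 and RASL11A. Searched on both strands (TGACG or CGTCA), the half-site was found in RASD1 and in 24.6% of all 35116 promoters of the same length. That share counts promoters with any match, however many. In REM2, RASD2 and RASL11A 0 matches were found. The full element TGACGTCA, which contains the half-site, was found in none (0) of these 4 and in 1.85% of all promoters. The RASD2 start site in RefSeq lies upstream of the gene's start in GENCODE, so its window may not be the promoter used here. These matches describe letters in a window and not bound sites, and their part in the change of RASD1 was not tested.

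RASD2 (ENSG00000100302; chromosome 22, 35540831 to 35553999, plus strand) read 90.8, 94.8 and 77.6 normalized counts without and 83.8, 114.2 and 85.1 with isoproterenol (replicates 1 to 3 of each group). The groups overlapped, although isoproterenol replicate 2 lay above, and untreated replicate 3 below, all samples of the other group. Its log2 fold change was 0.094 (SE 0.17), and it was -0.049 without isoproterenol replicate 2, so no direction could be given. The observed coefficient of variation was 10.3% in untreated samples, where counting alone gives 10.7%, and 18.2% in isoproterenol samples, where counting alone gives 10.6%.

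RASL11A (ENSG00000122035; chromosome 13, 27270830 to 27275192, plus strand) was the only measured member with a lower mean after isoproterenol. It read 11.5, 10.6 and 18.6 normalized counts without and 8.98, 11.5 and 10.3 with isoproterenol (replicates 1 to 3 of each group). The groups overlapped, and untreated replicate 3 stood above the other 5 samples. The log2 fold change was -0.34 (SE 0.38), and -0.11 without that sample. With 9 to 18 reads per sample, the exact 95% Poisson intervals of all 6 samples overlapped (10.7 to 28.4 reads in untreated replicate 3 and 4.12 to 17.1 in isoproterenol replicate 1), so a difference was not detectable at this depth.

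**Figure D2:**
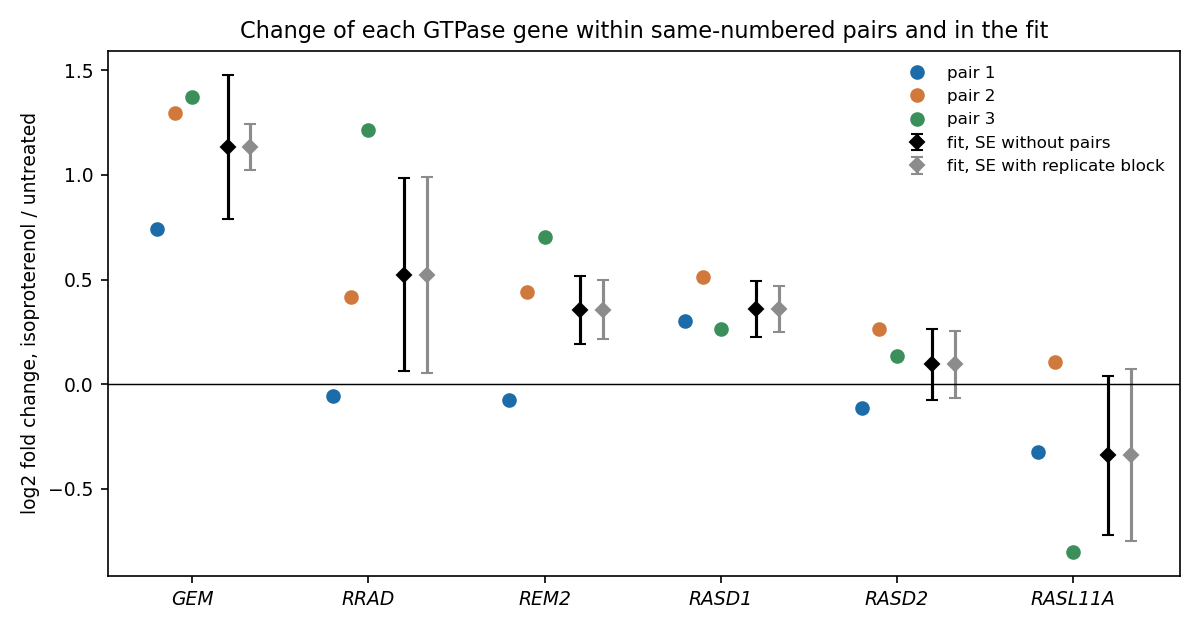
Log2 fold change (isoproterenol over untreated, log2(value + 1) scale) of each measured GTPase gene within pairs 1, 2 and 3 (circles) and in the fit (diamonds), with the SE without the pairs in black and with the replicate block in grey. The block narrowed the SE of GEM from 0.34 to 0.11 and left those of RRAD and RASL11A as wide as before; GEM and RASD1 have all 3 circles above 0.

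Isoproterenol replicate 3 was the highest of all 6 samples for 4 of the 6 members, namely the 3 RGK genes and RASD1. Without it the log2 fold change of GEM was 0.85 and that of RASD1 0.29. Pair 3 gave the largest change within pairs for GEM, RRAD and REM2 (1.37, 1.21 and 0.71), whereas pair 2 did so for RASD1 and RASD2 (0.51 and 0.27).

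Levels of different genes were compared per kilobase of exon in GENCODE release 44. In untreated neurons RASD1 was the most abundant, at 95.4 ± 14.3 normalized counts per kb, and its 3 values lay above those of every other member. GEM followed at 52.0 ± 14.9 and REM2 at 48.0 ± 5.43 (SD, n = 3), and these neighbours did not differ beyond their spread, since the values of REM2 (42.8 to 53.6) lay within those of GEM (35.1 to 63.3). RASD2 was lower, at 25.5 ± 2.62. RASL11A and RRAD came last at 5.18 ± 1.67 and 4.50 ± 0.79, with overlapping values.

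With isoproterenol the order at the top was no longer separated. RASD1 reached 122.6 ± 16.8 and GEM 115.8 ± 42.2 normalized counts per kb, and the values of RASD1 (103.3 to 133.8) lay within those of GEM (86.7 to 164.2). REM2 followed at 62.3 ± 13.99 and RASD2 at 27.4 ± 4.98, each below the lowest value of the gene before it, and RRAD (7.48 ± 4.74) and RASL11A (3.91 ± 0.49) differed by less than the SD of RRAD. Of the summed level per kb of the 6 members, GEM made up 22.3% ± 4.43 in untreated and 33.6% ± 6.07 in isoproterenol samples (SD, n = 3), with ranges of 17.2% to 25.01% and 27.2% to 39.3% that did not overlap. The share of RASD1 was 41.4% ± 4.47 and 36.6% ± 4.51, with overlapping ranges. GEM is part of the sum, so the shares restate the levels and are no separate result. The share of RASL11A also did not overlap (1.90% to 2.76% in untreated and 0.94% to 1.38% in isoproterenol samples), although its counts did.

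**Figure D3:**
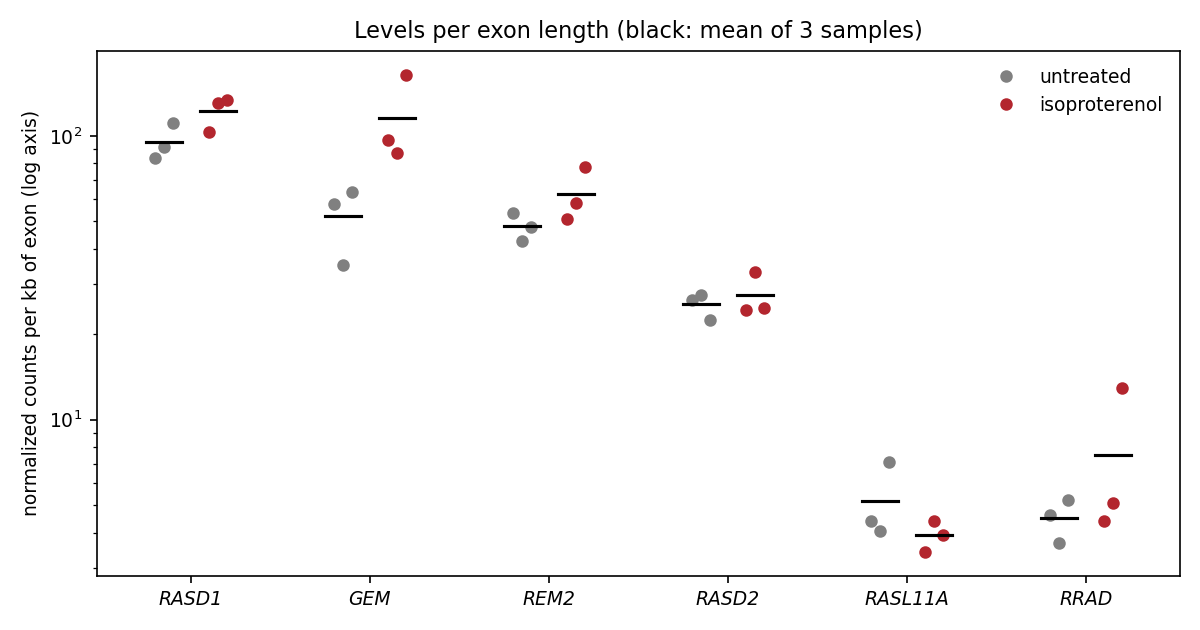
Normalized counts per kb of exon on a log axis for each measured GTPase gene, ordered by the untreated mean, with 3 untreated samples in grey, 3 isoproterenol samples in red and the group means as black lines. GEM moved from the level of REM2, near 50, to that of RASD1, above 100, and RASL11A and RRAD stayed below 13.

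The 5 genes whose values were most like those of GEM over the 6 samples, among 11586 genes that averaged 100 or more normalized counts, were PDZD7, SHISA2, TYK2, NR3C1 and TTC38. Likeness was Pearson's r on the log2(value + 1) scale, from 0.997 for PDZD7 to 0.991 for TTC38. It is a description over 6 samples that share the treatment, and with so many genes compared high values arise readily. PDZD7, SHISA2, TYK2 and NR3C1 ranked the 6 samples in the same order as GEM, and TTC38 did so except that isoproterenol replicates 1 and 2 changed places. The log2 fold changes of the 5 genes ran from 0.20 for NR3C1, which encodes the glucocorticoid receptor, to 0.38 for TTC38, against 1.14 for GEM.

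Other genes of the RAS family and the known binding partners of these GTPases were tested on lists taken from general knowledge. Their fold changes centred near 0, where the median over all genes tested was 0.0015 (log2). Without the block, none (0) of the members of the 4 lists passed FDR 0.05 in limma, edgeR or DESeq2. In limma, 1 of 14 calcium channel genes, 2 of 18 RGK partners, 1 of 13 RASD partners and 2 of 25 other RAS family genes had an unadjusted p under 0.05, against 7.68% of all genes, so these counts lie near the background. The counts that follow are those with the replicate block in limma, and all adjusted p-values are Benjamini-Hochberg values over the 18130 genes. With the block, 2.82% of all genes were higher and 2.06% lower, 4.88% in all, and with lists of 13 to 25 genes the 0 to 2 calls per list are not read as a result about the list.

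Among the 25 other RAS family genes tested, 1 was higher, 1 was lower and 23 did not pass, beside 4.88% of all genes called in either direction, and their median log2 fold change was 0.0025. DIRAS2, a small GTPase of neurons, read 1882, 1478 and 1976 normalized counts without and 2202, 1724 and 2177 with isoproterenol (replicates 1 to 3 of each group). The groups overlapped, but each isoproterenol sample was above its partner (log2 fold change 0.20, SE 0.038 with the block; limma adjusted p 1.10e-04 with the block and 0.826 without it). Without untreated replicate 2 or isoproterenol replicate 2 its change was 0.068 or 0.31. RHEB, the GTPase that activates mTOR, was lower, from 2444 ± 123 to 2262 ± 65.9 (log2 fold change -0.11; limma adjusted p 0.0467 with the block and 0.628 without it), and with the block but without replicate 1 its change was -0.069. The groups of RHEB overlapped. The NRAS, MRAS, RALA and RAP1A genes did not pass.

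Of the 14 subunit genes tested for high-voltage-activated calcium channels, the channels that RGK proteins inhibit, 0 were higher and 1 was lower, beside 2.06% lower among all genes. That gene was CACNA2D3, an α2δ subunit that supports channel delivery to the membrane, whose mean of 344.4 ± 76.5 normalized counts became 273.7 ± 59.6, a log2 fold change of -0.33 (SE 0.087 with the block; limma adjusted p 0.0096 with the block and 0.722 without it). The groups of CACNA2D3 overlapped, but its change was near equal in the 3 pairs, at -0.31, -0.34 and -0.34. Over the groups it was -0.15 when untreated replicate 2 was left out and -0.50 when isoproterenol replicate 2 was. The β subunits, which RGK proteins bind, changed by 0.071 (CACNB1), 0.0048 (CACNB2), 0.065 (CACNB3) and 0.11 (CACNB4) on the log2 scale and did not pass. The list median was 0.031.

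Of the 18 RGK partner genes, 0 were higher and 2 were lower with the block, beside 2.06% lower among all genes. Of these, CALM2, which encodes the calcium sensor calmodulin, read 24891, 24194 and 23868 normalized counts without and 21998, 23251 and 21257 with isoproterenol (replicates 1 to 3 of each group). Its groups did not overlap (log2 fold change -0.13, SE 0.018 with the block; limma adjusted p 2.45e-08 with the block and 0.273 without it). The kinase genes ROCK1 and ROCK2 changed by 0.11 and -0.014, and neither passed. GMIP, which encodes a protein named for binding GEM, changed by 0.11 and did not pass, and the list median was -0.011.

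Of the 13 RASD partner genes, 0 were higher and 1 was lower with the block, beside the same 2.06%. GNAI1, an inhibitory G protein α subunit, read 4353, 4465 and 4460 normalized counts without and 4061, 4122 and 3892 with isoproterenol (replicates 1 to 3 of each group). Its groups did not overlap (log2 fold change -0.14, SE 0.029 with the block; limma adjusted p 4.05e-04 with the block and 0.399 without it). NOS1AP, the adaptor between RASD1 and neuronal nitric oxide synthase, changed by -0.024 and did not pass. NOS1 itself had the largest change of the list, from 12.3 ± 4.82 to 19.6 ± 1.26 normalized counts, and did not pass (log2 fold change 0.69, SE 0.35; limma adjusted p 0.659 without and 0.338 with the block). The list median was 0.013.

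**Figure D4:**
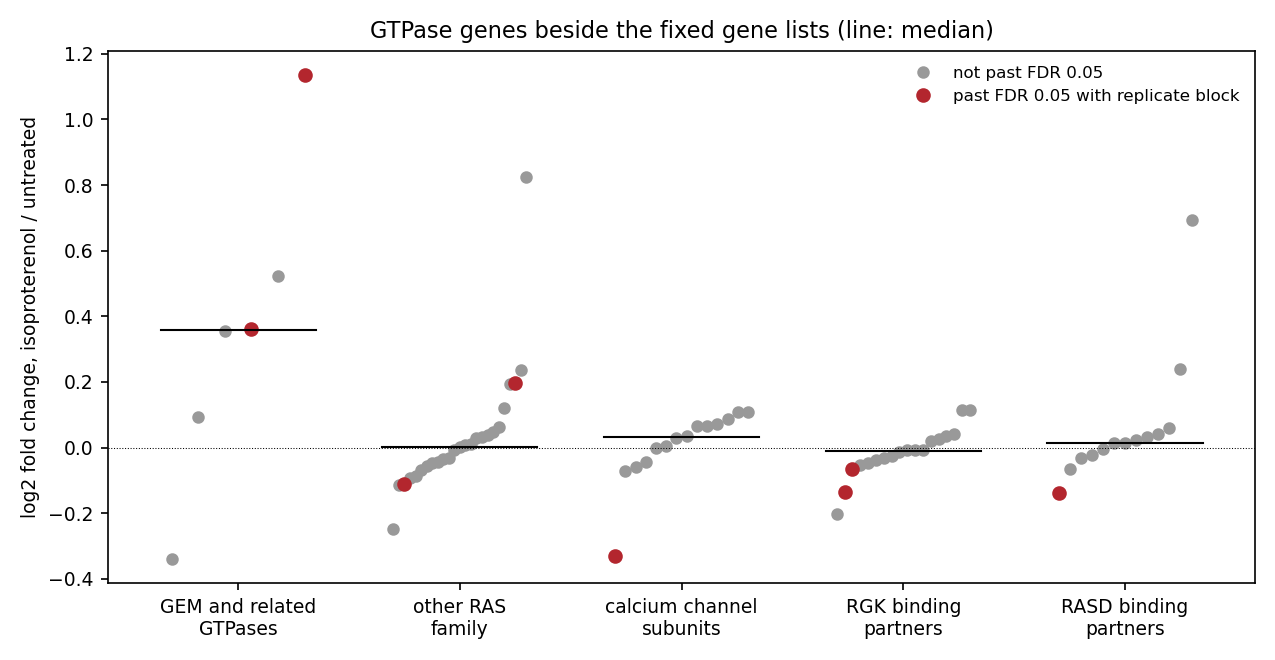
Log2 fold change (isoproterenol over untreated) of the 6 measured GTPase genes beside other RAS family genes (25), calcium channel subunits (14), RGK partners (18) and RASD partners (13); each point is a gene, lines are medians, and red points passed FDR 0.05 with the replicate block. The 4 list medians lay between -0.011 and 0.031, and the red points of the lists lay between -0.33 and 0.20, below GEM at 1.14. The 6 members were chosen with this contrast known, so their place beside the lists is not a result.

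Over all 20 alternative settings, the adjusted p ran from 3.74e-05 to 0.9995 for DIRAS2, from 0.0122 to 0.935 for RHEB, from 0.0067 to 0.9995 for CACNA2D3, from 7.63e-12 to 0.924 for CALM2 and from 6.76e-05 to 0.934 for GNAI1, each with its direction kept in all 20. Among the marker genes, GRIN1 was higher (log2 fold change 0.29) and NEFL lower (-0.045) past FDR 0.05 with the block in limma, beside 4.88% of all genes. Over the same 20 limma, edgeR and DESeq2 settings the adjusted p ran from 4.72e-05 to 0.905 for GRIN1 and from 2.68e-04 to 0.9995 for NEFL. GRIN1 passed in 5 of them and NEFL in 2.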

How the data were processed

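Poly(A) RNA-seq was measured in 6 samples, and sample titles gave the groups and the replicate numbers. The authors aligned reads to GRCh38 with STAR, counted them per gene with featureCounts and deposited a signal, the count divided by a DESeq2 size factor; tool versions, the annotation and the strand setting are not given in the sources used here. Values in a column were whole multiples of 1 step, and reads were recovered for 100% of them (tolerance 0.05 reads). Genes with more than 5 reads in at least 4 samples were tested, 18130 of 19823. edgeR had been planned for raw counts. As the values were normalized, the test was limma 3.58.1 in R 4.3.3 (trend, robust) on log2(value + 1), two-sided, with Benjamini-Hochberg adjustment over all genes. The test was also run on simulated data, but that outcome is not reported here and no support is drawn from it. edgeR 4.0.16 and DESeq2 1.42.0 on recovered reads, a replicate block, other scalings, pseudocounts and filters, and leaving out samples were alternatives. The replicate numbers were treated as pairs, since samples sharing a number deviated together from their groups (r of 0.269, 0.493 and 0.388 over 11587 genes averaging 100 or more, against a minimum of 0.1). The labels do not state that equal numbers mean pairs, and samples with different numbers were not correlated for comparison. GENCODE release 44 held 99.6% of the gene identifiers, and no other gene in it overlapped a measured member. Named genes are the members, RBM12, up to 3 genes of each list past FDR 0.05 without or with the block, and the 5 most like GEM, and genes named without passing were chosen after their values were seen. Members and lists were chosen with earlier results of these data known. Intervals cover counting error only, and sequences are from RefSeq. The values of 1 RGK partner gene that passed with the block are not reported here.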

Additional observations from a re-analysis of the deposited data

How the results depend on the processing

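The log2 fold change of each member moved by less than the SD over the 3 pairs in every alternative run. For RRAD and RASL11A that SD (0.64 and 0.45) was larger than the change itself (0.52 and -0.34), so even a fall to 0 would stay within it. Leaving out both samples of 1 replicate number could not move a change by that SD, so those runs do not test it. GEM (0.85 to 1.33), RASD1 (0.27 to 0.48), REM2 (0.18 to 0.57) and, in 19 settings, RRAD (0.078 to 0.81) stayed above 0 and RASL11A (-0.56 to -0.11) below it, while RASD2 ran from -0.049 to 0.20. RRAD had no value with a mean of at least 10. Without the pairs, 3 genes passed FDR 0.05 in limma, 23 in DESeq2, and 2 to 67 with 1 sample left out (67 without isoproterenol replicate 2); 1 RGK partner passed there and 0 otherwise. With the replicate block, 885 genes passed in limma, 977 in edgeR and 139 in DESeq2. Of the members, 2, 2 and 1 passed. The lists gave 1, 1 and 0 calcium channel genes, 2, 2 and 1 RGK partners, 1, 1 and 0 RASD partners, and 2, 3 and 0 other RAS family genes. Leaving out both samples of replicate 1, 2 or 3 under the block, chosen after seeing the data, gave 531, 665 and 456 genes, 2, 1 and 1 members, 1, 0 and 0 calcium channel genes, 1, 3 and 1 RGK partners, 1, 1 and 0 RASD partners, and 1, 2 and 1 other RAS family genes. GEM passed in all 6 fits with the block, and REM2 in 1, without replicate 1. The cause of these differences was not tested. With 6 to 20 reads, RRAD and RASL11A are limited by depth.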
